A study of Homo sapiens with 6 samples.

Results

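The aminoacyl-tRNA synthetases are described here in a human cell line labelled HBMEC (brain microvascular endothelial cells) treated by OGD/R (oxygen-glucose deprivation, then reperfusion), a culture model of stroke that takes both away for a time and gives them back. The set has 38 genes, taken by symbol from the deposited table of 17104 genes, and all 38 had a row. It holds 19 genes of cytosolic synthetases, 16 of mitochondrial synthetases and 3 of scaffold proteins. RNA-seq read counts came from 3 OGD/R libraries (titles marked OGD) and 3 control libraries kept under normal culture (titles marked CON), all from the same cell line. How long each step lasted is not stated in the labels. Whether replicate libraries stem from separate cultures is also unstated, and p-values here reflect the spread between these samples alone, which may be technical.

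Aminoacyl-tRNA synthetases join each amino acid to its tRNA and so supply the ribosome with building blocks. The cytosol and the mitochondria use largely separate enzymes, both encoded in the nucleus; GARS1 and KARS1 serve both compartments from a single gene each. Several cytosolic enzymes sit together in the multi-synthetase complex, held by the scaffold proteins AIMP1, AIMP2 and EEF1E1. Many cytosolic synthetase genes are known targets of ATF4, a transcription factor that is made when amino acids run short or the endoplasmic reticulum is stressed, and that binds C/EBP-ATF response elements in DNA.

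The libraries held 31048662 to 34484647 counts. Levels are in CPM, the counts scaled by TMM to a common library size, given library by library. Each log2 fold change sets OGD/R over control and carries its standard error (SE) after ±; the ratios of enzyme pairs carry an SD over 3 libraries instead. It comes from edgeR's quasi-likelihood test, two-sided, with Benjamini-Hochberg adjustment over all 17104 genes and a threshold of 0.05. Of the 16 endothelial marker genes looked up, 6 had a row, among them CDH5 and ENG, while PECAM1, VWF and KDR were among the 10 with no value here. The summed endothelial markers were at 292 to 305 CPM in OGD/R and 289 to 305 CPM in control libraries, but members changed in both directions: CDH5, the cadherin of endothelial junctions, rose by 0.81 ± 0.11, while ROBO4 (−0.75 ± 0.17) and SOX18 (−0.33 ± 0.11) fell. Of 15 epithelial markers 9 had a row, summing to 3048 to 3104 CPM in OGD/R and 2485 to 2711 CPM in control libraries, and 4 of the 9 rose while 0 fell (at an unadjusted p under 0.05, 5 rose and 2 fell in edgeR, and DESeq2 and limma-voom gave the same adjusted counts). KRT8, KRT18 and KRT7 made up most of the epithelial sum. Their means were 1555, 962 and 400 CPM after OGD/R and 1235, 848 and 356 CPM in control. EPCAM averaged 57.7 CPM after OGD/R and 52.3 CPM in control and did not pass. ELF3, the other marker that rose (0.19 ± 0.06), averaged 47.0 and 41.2 CPM in that order. ESRP1 (37.4 and 42.2 CPM), CLDN4 (17.8 and 21.2 CPM) and ESRP2 (0.37 and 0.37 CPM) did not pass. CDH1 averaged 0.98 CPM after OGD/R and 1.19 CPM in control, and KRT19 and GRHL2 were among the markers with no row. Of all genes tested, 10.2% rose and 9.48% fell. Most defining endothelial markers thus had no value here. The 6 with a row ranged from ROBO4 (3.79 CPM after OGD/R and 6.36 CPM in control) to ESAM (132 and 138 CPM). A missing row is not a measured level, and EEF1G, a cytosolic elongation factor, had no row either. Why genes had no row was not tested, so the missing markers cannot decide whether the cell type label holds. The part that the epithelial difference, mainly one of keratins, has in the results below was not tested. Fold change also fell with transcript length, with a Spearman's rho of −0.37 across 10858 protein-coding genes, which are not independent replicates. The trend also differed between libraries of a group. With length, each gene's deviation from its mean over all libraries had a rho of −0.29, −0.35 and −0.24 in OGD/R libraries. In control libraries it was 0.46, 0.04 and 0.29. A correction for length and GC shifted the members' estimates to varying degrees, and its values are given for some of them only.

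After OGD/R the cytosolic synthetases split. Of the 19 genes, 9 fell (IARS1, SARS1, MARS1, YARS1, GARS1, AARS1, EPRS1, WARS1 and CARS1), 3 rose (RARS1, KARS1 and HARS1) and 7 did not pass. The falls were small: CARS1 fell by 12.4%, SARS1 fell by 21.6% and IARS1 fell by 21.7%, with the others between them. The rises ran from 12.6% in HARS1 to 22.8% in RARS1. Of all genes tested, 19.7% changed, 9.48% lower and 10.2% higher. Among the 4836 genes that averaged 50 CPM or more, these shares were 16.9% lower and 23.0% higher. Regardless of the test, all OGD/R libraries lay below all control libraries in 16.6% of all genes and above them in 16.4%. The median log2 fold change was −0.11 over the cytosolic enzymes and 0.00 over all genes (−0.0046 before rounding). Of the 16 mitochondrial enzymes, 2 fell and 1 rose, with a median of 0.02 that turned to −0.0174 after a length and GC correction and to −0.0065 with total-count scaling. All 12 cytosolic calls held in each of 16 alternative settings, with adjusted p up to 0.0498, while each of the 3 mitochondrial calls was lost in at least 1 of them. In bulk RNA, fewer cells of a type and less RNA per cell cannot be told apart.

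**Figure D1:**
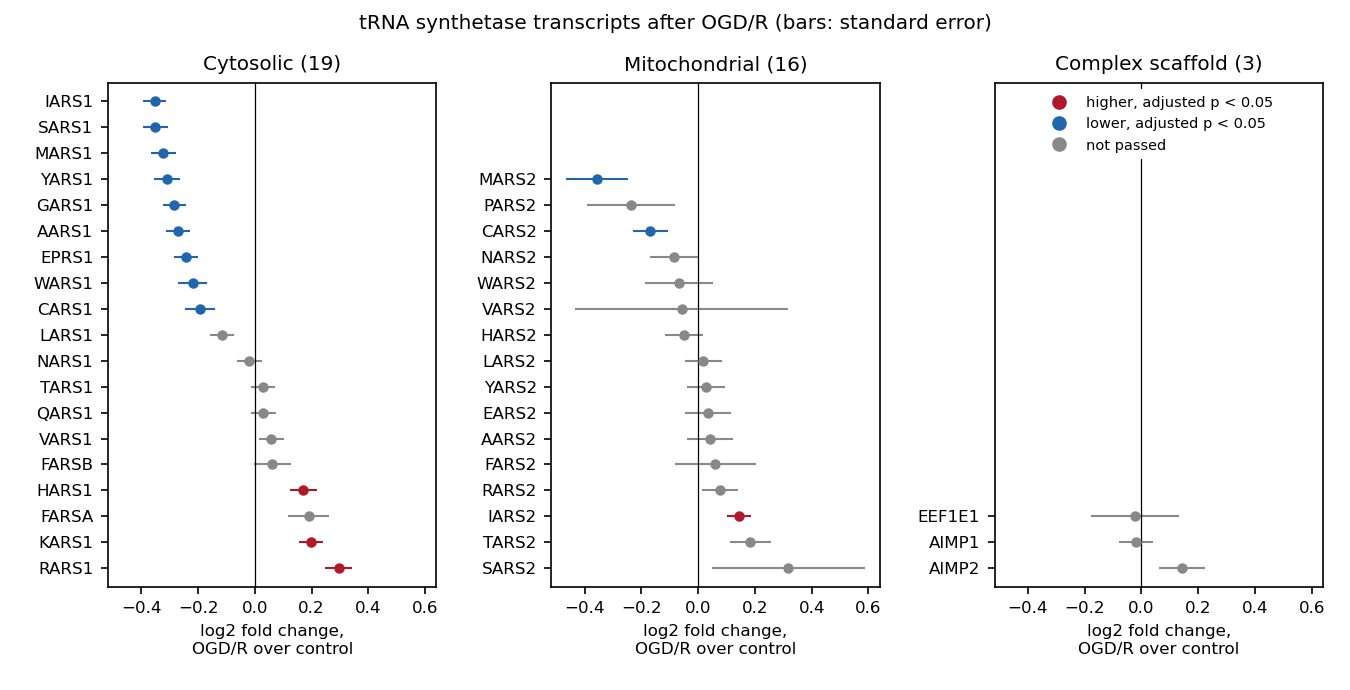
Log2 fold change of OGD/R over control for each of the 38 genes, in panels for the 19 cytosolic, 16 mitochondrial and 3 scaffold genes; points are edgeR estimates, bars are 1 SE, and colour marks genes past an adjusted p of 0.05. The cytosolic panel runs from −0.35 (IARS1 and SARS1) to 0.30 (RARS1), and the wide bars of SARS2 and VARS2 go with their low counts.

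The cytosolic enzymes were lower when summed, and less clearly so by their median level. Their summed level was 3529, 3568 and 3585 CPM in OGD/R libraries and 3821, 4042 and 3735 CPM in control libraries. The groups did not overlap, and the mean fell by 7.89% after OGD/R. The median level of the 19 genes was 192, 189 and 194.9 CPM in OGD/R libraries and 194.7, 207 and 199 CPM in control libraries. By this measure the groups overlapped, and the mean fell by 4.26%. The mitochondrial enzymes summed to 609, 622 and 621 CPM in OGD/R libraries and 592, 619 and 579.8 CPM in control libraries, where the groups overlapped. Within the control group, replicate 2 was the highest library for 18 of the 19 cytosolic enzymes, against 9 of the 16 mitochondrial ones, 34.1% of all genes and 39.6% of those averaging 50 CPM or more. Without control replicate 2 the cytosolic counts were 9 lower and 4 higher, the added one being FARSA. Every fall was then smaller and every rise larger than with all libraries. The log2 fold change of MARS1 went from −0.32 to −0.27, that of SARS1 from −0.35 to −0.30 and that of RARS1 from 0.30 to 0.36.

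IARS1 (ENSG00000196305), which charges isoleucine and belongs to the multi-synthetase complex, was among the enzymes that fell. It was at 307, 325 and 309 CPM in OGD/R libraries and 406, 409.9 and 386 CPM in control libraries. The OGD/R libraries all lay well below the control ones, and IARS1 fell by 0.35 ± 0.04 on the log2 scale (edgeR adjusted p = 3.45e-09). SARS1 (ENSG00000031698), the seryl-tRNA synthetase, was at 176, 189 and 179 CPM in OGD/R libraries and 226, 246 and 221 CPM in control libraries (−0.35 ± 0.04, adjusted p = 2.83e-08). Here too the groups stood apart. The fold changes of IARS1 and SARS1 lay within 1 SE of each other, and after the length and GC correction they were at −0.34 and −0.41. MARS1 (ENSG00000166986), the methionyl enzyme of the complex, had 232, 220.5 and 235 CPM after OGD/R and 274, 306 and 279 CPM in control (−0.32 ± 0.04, adjusted p = 1.23e-07). Of the MARS1 exon bases, 13.3% overlap other genes, with the stress gene DDIT3 on the opposite strand among them, and the labels do not say whether counting used strand.

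YARS1 (ENSG00000134684), the tyrosyl enzyme, whose fragments are known for cytokine activity, had 119.7, 115 and 113 CPM in OGD/R libraries and 142, 149 and 139 CPM in control libraries. Its fold change was −0.31 ± 0.05 (adjusted p = 9.22e-07), with no overlap between groups. GARS1 (ENSG00000106105), the glycyl enzyme of both compartments, was at 192, 189 and 195 CPM after OGD/R and at 235, 235 and 231 CPM in control. This was the tightest of the falling genes within the control group, where its coefficient of variation was 1.12%, and its fold change was −0.28 ± 0.04 (adjusted p = 6.05e-07). AARS1 (ENSG00000090861), the alanyl enzyme, had 237, 231 and 235 CPM in OGD/R libraries and 275, 296 and 277 CPM in control libraries (−0.27 ± 0.04, adjusted p = 1.63e-06). The highest OGD/R library of AARS1 was below its lowest control library.

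EPRS1 (ENSG00000136628), a fused enzyme that charges both glutamate and proline and is part of the complex, was at 266, 275 and 279.6 CPM after OGD/R and at 326, 337 and 309 CPM in control (−0.24 ± 0.04, adjusted p = 1.41e-05). CARS1 (ENSG00000110619), the cysteinyl enzyme, was at 73.6, 72.0 and 76.2 CPM in OGD/R libraries and 84.2, 87.6 and 81.5 CPM in control libraries (−0.19 ± 0.05, adjusted p = 0.00587). The CARS1 groups did not overlap. Its largest adjusted p over the alternatives was 0.0498, the largest of any cytosolic call.

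WARS1 (ENSG00000140105), the tryptophanyl enzyme, is known both as a strongly interferon-gamma-inducible gene and as a target of ATF4. It was at 94.3, 86.2 and 85.3 CPM in OGD/R libraries and 106, 107 and 96.7 CPM in control libraries. OGD/R replicate 1 came within a few CPM of control replicate 3, without overlap, and the fold change was −0.22 ± 0.05 (adjusted p = 0.00136). Among other interferon-gamma-inducible genes, of which 18 of 20 listed were measured, 12 rose, 6 did not pass and 0 fell in edgeR (0 also fell at an unadjusted p under 0.05, and in DESeq2 and limma-voom), with a median log2 fold change of 0.27; PSMB9, an immunoproteasome subunit, rose by 0.86 ± 0.08, PSME2, a proteasome activator subunit, by 0.45 ± 0.05 and GBP1, a guanylate-binding protein, by 0.81 ± 0.10. Over all genes, 10.2% rose and 9.48% fell. Of the WARS1 exon bases, 10.6% overlap genes on the opposite strand.

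**Figure D2:**
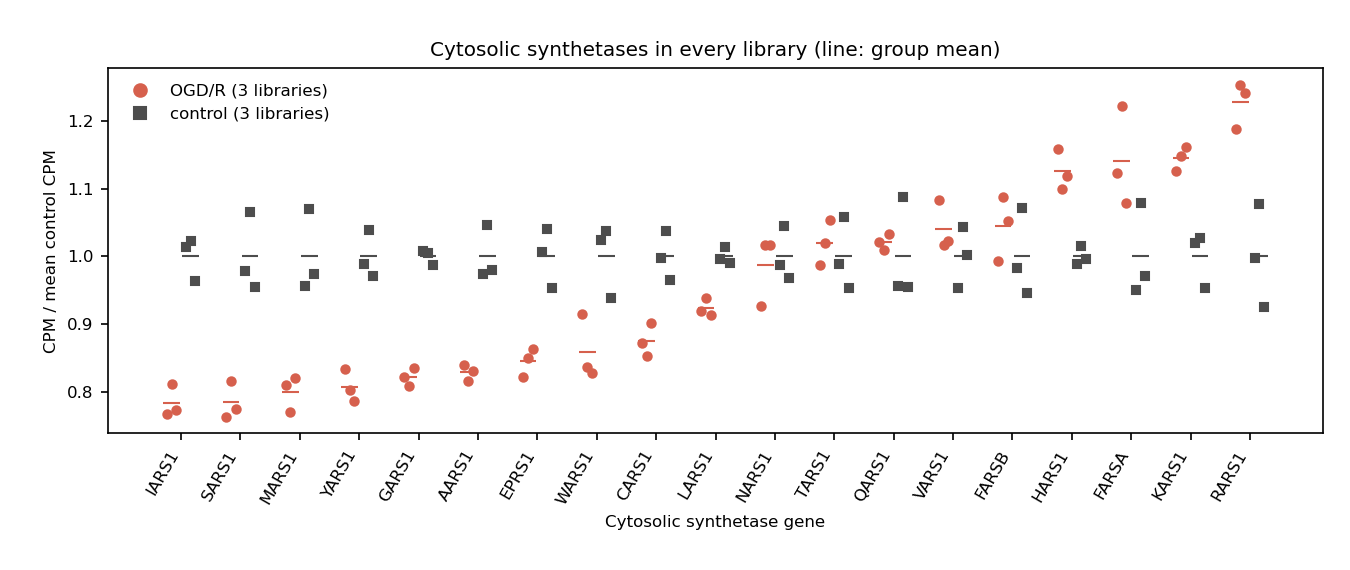
CPM of each of the 19 cytosolic synthetases in the 3 OGD/R libraries (circles) and 3 control libraries (squares), divided by the gene's mean control CPM; horizontal lines are group means and genes are ordered by fold change. In the 10 genes on the left, from IARS1 to LARS1, the OGD/R libraries all lie below the control libraries, and in HARS1, KARS1 and RARS1 they all lie above. Over all genes, the share was 16.6% below and 16.4% above.

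RARS1 (ENSG00000113643), the arginyl enzyme of the complex, rose the most of the cytosolic enzymes. It was at 155, 164 and 162 CPM in OGD/R libraries and at 130.3, 141 and 121 CPM in control libraries. The groups did not overlap, and the fold change was 0.30 ± 0.05 (adjusted p = 4.56e-06), or 0.19 after the length and GC correction (adjusted p = 0.00022). KARS1 (ENSG00000065427), the lysyl enzyme of both compartments and a member of the complex, had 215, 219 and 222 CPM after OGD/R and 195, 196 and 182 CPM in control (0.20 ± 0.04, adjusted p = 0.000474), and its fold change was 0.13 after the length and GC correction (adjusted p = 0.00406). HARS1 (ENSG00000170445), the histidyl enzyme, had 119, 112 and 115 CPM after OGD/R and 101, 104 and 102 CPM in control (0.17 ± 0.05, adjusted p = 0.00622). In both genes every OGD/R library was above every control library.

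The other 7 cytosolic enzymes did not pass. LARS1, the leucyl enzyme and a known leucine sensor of the mTORC1 pathway, was nearest: it was at 162, 166 and 161 CPM in OGD/R libraries and 176, 179 and 175 CPM in control libraries (−0.11 ± 0.04, adjusted p = 0.0501). Its groups did not overlap, and it passed in 4 of the 16 alternatives. FARSA and FARSB encode the alpha and beta subunits of phenylalanyl-tRNA synthetase. FARSA had a log2 fold change of 0.19 ± 0.07 (adjusted p = 0.0564) and passed in 5 alternatives, and FARSB had 0.06 ± 0.07. QARS1, the glutaminyl enzyme of the complex, was at 305, 302 and 309 CPM after OGD/R and at 286, 325 and 285 CPM in control, where control replicate 2 lay above and the other two controls below all OGD/R libraries (0.03 ± 0.04). TARS1 (0.03 ± 0.04) and NARS1 (−0.02 ± 0.04), the threonyl and asparaginyl enzymes, changed sign in some alternatives. VARS1, the valyl enzyme, had 0.06 ± 0.04, and passed after the length and GC correction, at 0.15 (adjusted p = 0.00174).

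The multi-synthetase complex held genes of both directions. Of its 10 listed genes, 3 fell (IARS1, MARS1 and EPRS1), 2 rose (RARS1 and KARS1) and 5 did not pass, with a median of −0.02. These 10 include the 3 scaffold genes, which are not enzymes. Of the enzymes of the complex alone, LARS1 had the middle fold change, at −0.11. Among the 12 cytosolic enzymes outside the complex, 6 fell, 1 rose and 5 did not pass, with a median of −0.11. The difference between these sets was not tested. For comparison, 9.48% of all genes fell and 10.2% rose. Among genes averaging 50 CPM or more, 16.9% fell and 23.0% rose. None of the 3 scaffold genes passed in edgeR, at an unadjusted p under 0.05 either, nor in DESeq2 or limma-voom.

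AIMP1, whose cleaved form is known as a cytokine, had 51.7, 49.5 and 51.6 CPM in OGD/R libraries and 54.2, 50.1 and 50.7 CPM in control libraries (−0.02 ± 0.06, adjusted p = 0.882), with −0.12 after the length and GC correction. AIMP2 had 28.6, 26.3 and 25.5 CPM after OGD/R and 23.7, 24.99 and 24.1 CPM in control. These AIMP2 values did not overlap, but the fold change of 0.14 ± 0.08 did not pass (adjusted p = 0.23), and it was 0.02 after the length and GC correction. EEF1E1 was low, with 6.04, 5.94 and 6.35 CPM after OGD/R and 6.49, 7.03 and 5.11 CPM in control (−0.02 ± 0.15, adjusted p = 0.95), with −0.23 after the same correction. Of the exon bases, 28.9% overlap another gene in AIMP2 and 18.7% overlap a read-through transcript in EEF1E1.

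Promoter sequences of the members were read because many synthetase genes are known ATF4 targets. RefSeq promoter windows (GRCh38.p14, 250 bases before to 50 after each start) matched 33 of the 38 genes by symbol; AARS2, LARS1, VARS1, VARS2 and YARS1 had no entry. The letters TGATGNAA of the C/EBP-ATF response element were searched on both strands (TTNCATCA on the other strand), with no other motif, so no overlap with another motif arises. They stood in the windows of 7 of 16 cytosolic genes, 1 of 14 mitochondrial genes and 0 of 3 scaffold genes, against 3.62% of all 35116 windows and 4.46% of 27305 genes with a window. A match of letters is a description and not a site. By response, the letters were found in 5 of 8 cytosolic genes that fell, 0 of 3 that rose and 2 of 5 that did not pass. The genomic stretches around each match are shown here because they let the falling and unchanged genes be compared. Each is written on its gene's strand with 30 bases, and capitals mark the matched letters.

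AARS1, chr16:70289675-70289704, minus strand: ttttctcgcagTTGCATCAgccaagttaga
CARS1, chr11:3057407-3057436, minus strand: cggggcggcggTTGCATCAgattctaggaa
GARS1, chr7:30594834-30594863, plus strand: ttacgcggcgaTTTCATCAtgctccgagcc
IARS1, chr9:92293692-92293721, minus strand: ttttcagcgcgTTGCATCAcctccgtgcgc
MARS1, chr12:57488053-57488082, plus strand: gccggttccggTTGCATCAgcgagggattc
NARS1, chr18:57621804-57621833, minus strand: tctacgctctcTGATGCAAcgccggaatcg
TARS1, chr5:33440956-33440985, plus strand: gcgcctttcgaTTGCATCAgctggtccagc
YARS2, chr12:32756076-32756105, minus strand: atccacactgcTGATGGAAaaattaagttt

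The first 5 genes fell, while NARS1, TARS1 and the mitochondrial YARS2 did not pass. In 6 of the 8 genes, all cytosolic, the matched letters were TTGCATCA or its complement TGATGCAA; GARS1 and YARS2 differ at the free base. The match began 13 bases before the start in IARS1, 4 in MARS1, 2 in CARS1, 33 in GARS1 and 187 in AARS1, and 197 before it in YARS2. In TARS1 and NARS1 it began 2 and 14 bases after the start. CARS1, GARS1 and TARS1 each had 2 windows, with the letters in 1 of them, and their distances are from the start of that window. The 3 falling genes SARS1, EPRS1 and WARS1 had 2, 1 and 2 windows, none of them with these letters. IARS1 is shown, as an example of a falling gene with a match near its start, with the 250 bases before its start, and capitals mark the same match.

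IARS1 upstream, chr9:92293698-92293947, minus strand: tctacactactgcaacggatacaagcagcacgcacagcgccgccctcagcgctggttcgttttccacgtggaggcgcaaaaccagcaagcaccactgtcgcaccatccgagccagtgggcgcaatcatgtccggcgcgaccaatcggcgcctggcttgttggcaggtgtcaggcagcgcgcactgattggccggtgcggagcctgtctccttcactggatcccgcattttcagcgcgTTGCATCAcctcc

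**Figure D3:**
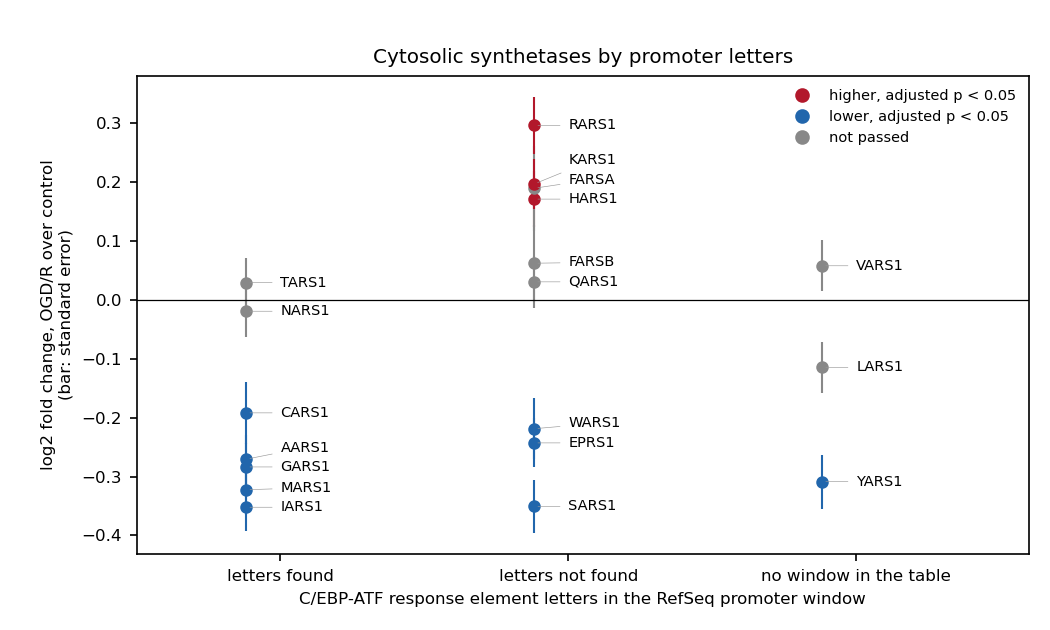
Log2 fold change of OGD/R over control of the 19 cytosolic synthetases, by whether the C/EBP-ATF response element letters were found in the RefSeq promoter window; points are edgeR estimates, bars are 1 SE, and colour marks genes past an adjusted p of 0.05. The column with the letters holds 5 genes that fell and 2 that did not pass, the column without them holds 3 that fell, 3 that rose and 3 that did not pass, and 3 genes had no window.

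The genes of the ATF4 and amino acid stress list, of which no synthetase is a member, were mostly lower after OGD/R. Of 30 measured, 23 fell, 7 did not pass and 0 rose in edgeR (0 rose at an unadjusted p under 0.05, and 0 in DESeq2 and limma-voom), with a median log2 fold change of −0.41. Over all genes, 9.48% fell and 10.2% rose. The difference from the synthetases was not tested. Their summed level was 3064, 3061 and 3001 CPM in OGD/R libraries and 4055, 4309 and 4106 CPM in control libraries. Control replicate 2 was the highest control library for 20 of the 30. The 3 with the smallest p were PSAT1 (−0.95 ± 0.05) and PHGDH (−0.79 ± 0.05), enzymes of serine synthesis, and SLC7A11 (−1.46 ± 0.07), the cystine importer. ATF4 itself, named for its role after its value was seen, had a fold change of −0.32 ± 0.05 (adjusted p = 6.7e-07). XPOT, which exports tRNA from the nucleus and stands in this list and in that of tRNA maturation, fell by 0.42 ± 0.04 on the log2 scale (adjusted p = 1.73e-10).

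The mitochondrial enzymes were mostly at lower levels. Per kilobase of the longest annotated transcript, the cytosolic genes had 13.98 to 107.98 CPM after OGD/R and 13.4 to 123 CPM in control. The mitochondrial genes had 0.228 to 68.5 CPM per kilobase after OGD/R and 0.238 to 62.0 in control. Their standard errors were wider, with a median of 0.08 on the log2 scale, against 0.04 for the cytosolic genes. SARS2 and VARS2 were lowest, and 57.0% and 22.0% of their exon bases overlap other genes, so their levels are uncertain.

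**Figure D4:**
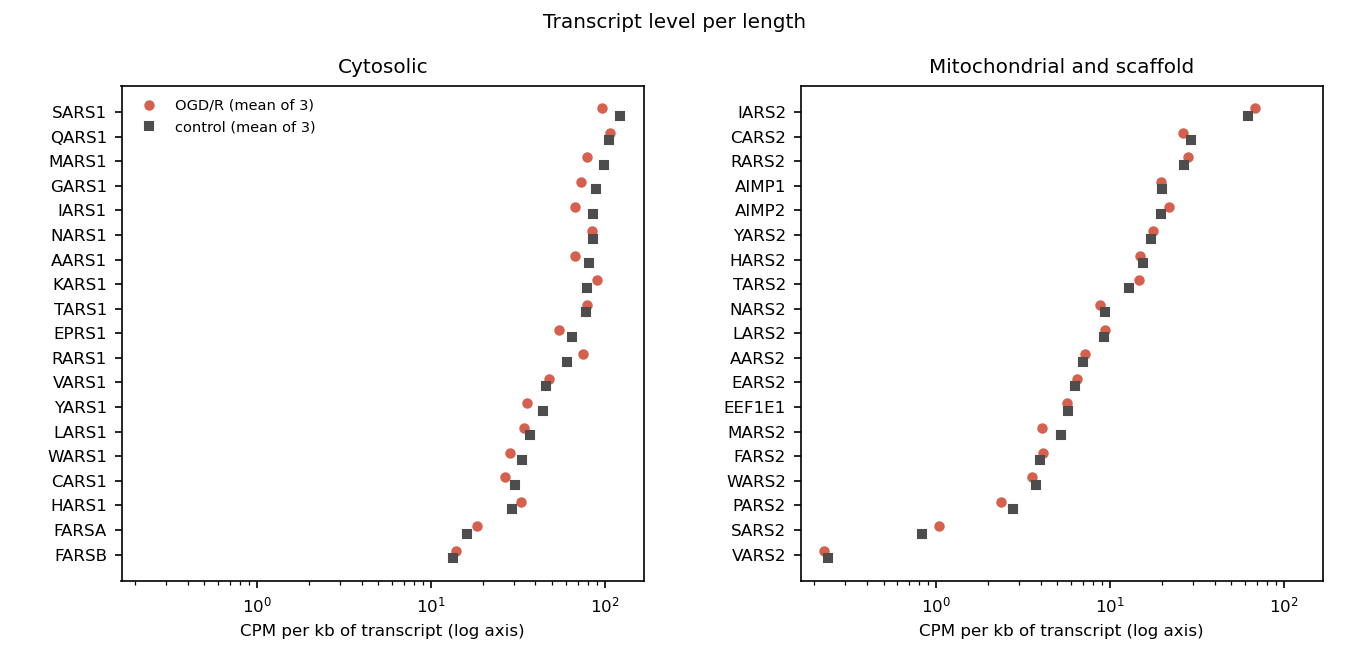
Mean CPM per kilobase of transcript (log axis) of each gene after OGD/R (circles) and in control (squares), 3 libraries each, for the 19 cytosolic genes on the left and the 16 mitochondrial and 3 scaffold genes on the right. IARS2 is the one mitochondrial gene at the level of the abundant cytosolic ones, with 68.5 after OGD/R and 62.0 in control.

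IARS2 (ENSG00000067704), the mitochondrial isoleucyl enzyme, was the most abundant of its class and the member that rose. It was at 240.3, 243 and 249 CPM in OGD/R libraries and 221, 232 and 209.8 CPM in control libraries. The groups did not overlap, and the fold change was 0.14 ± 0.04 (adjusted p = 0.0113). This call was lost without OGD/R replicate 3 (0.13, adjusted p = 0.0687) and without control replicate 3 (0.11, adjusted p = 0.126).

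MARS2 (ENSG00000247626), the mitochondrial methionyl enzyme, had 14.3, 11.01 and 11.6 CPM in OGD/R libraries and 17.4, 15.4 and 14.6 CPM in control libraries. OGD/R replicate 1 lay just below control replicate 3, and the fold change was −0.36 ± 0.11 (adjusted p = 0.015). Leaving out OGD/R replicate 2 gave −0.28 (adjusted p = 0.124), leaving out OGD/R replicate 3 gave −0.31 (adjusted p = 0.0729) and leaving out control replicate 1 gave −0.28 (adjusted p = 0.12). CARS2 (ENSG00000134905), the mitochondrial cysteinyl enzyme, had 48.5, 51.4 and 47.6 CPM after OGD/R and 52.8, 56.3 and 56.5 CPM in control (−0.17 ± 0.06, adjusted p = 0.0432), with −0.22 after the length and GC correction. Its call ended without OGD/R replicate 1 (adjusted p = 0.113) or 3 (0.169), without control replicate 2 (0.112) or 3 (0.164), and with upper-quartile scaling (0.0534).

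The other 13 mitochondrial enzymes did not pass. TARS2, the threonyl enzyme, was nearest, with 0.18 ± 0.07 (adjusted p = 0.0649), and it passed in 2 alternatives. Their fold changes ran from −0.24 ± 0.16 in PARS2, the prolyl enzyme, to 0.32 ± 0.27 in SARS2. The values of LARS2 (0.02), YARS2 (0.03), EARS2 (0.04), AARS2 (0.04), FARS2 (0.06) and RARS2 (0.08) were above 0, and those of HARS2 (−0.05), VARS2 (−0.06), WARS2 (−0.07) and NARS2 (−0.08) below it. The length and GC correction put NARS2 at −0.16, WARS2 at −0.14 and LARS2 at 0.08. YARS2 was the steadiest, with 37.4, 37.5 and 37.8 CPM in OGD/R libraries and 36.8, 37.1 and 36.6 CPM in control libraries, which did not overlap and still differed by little (adjusted p = 0.836).

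Enzymes that charge the same amino acid in the cytosol and in the mitochondria were set side by side in 17 pairs (EPRS1 and FARS2 each stand in 2), as the log2 ratio of the cytosolic to the mitochondrial CPM in each library. In the isoleucine pair the fold changes had opposite signs and the levels came closer: the log2 ratio of IARS1 to IARS2 averaged 0.36 ± 0.05 after OGD/R and 0.86 ± 0.03 in control, a difference of −0.50. The tyrosine pair (YARS1 and YARS2) averaged 1.63 ± 0.05 after OGD/R and 1.96 ± 0.04 in control, and the alanine pair 3.08 ± 0.12 after OGD/R and 3.39 ± 0.03 in control. In the methionine pair both genes fell, and the ratio of MARS1 to MARS2 was 4.22 ± 0.18 after OGD/R and 4.18 ± 0.18 in control. The cysteine pair likewise fell in both compartments, with ratios of 0.59 ± 0.10 after OGD/R and 0.61 ± 0.08 in control. In all, the ratio was lower after OGD/R without overlap in 6 pairs, higher without overlap in 3 and overlapping in 8. Single genes did not overlap, in either direction, in 33% of all genes. That share is for single levels and not for ratios, for which none was worked out. With 3 libraries against 3, a two-sided exact permutation test cannot go below p = 0.1, which the 9 pairs without overlap reached (adjusted p = 0.189 over the 17 pairs), so none could pass.

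**Figure D5:**
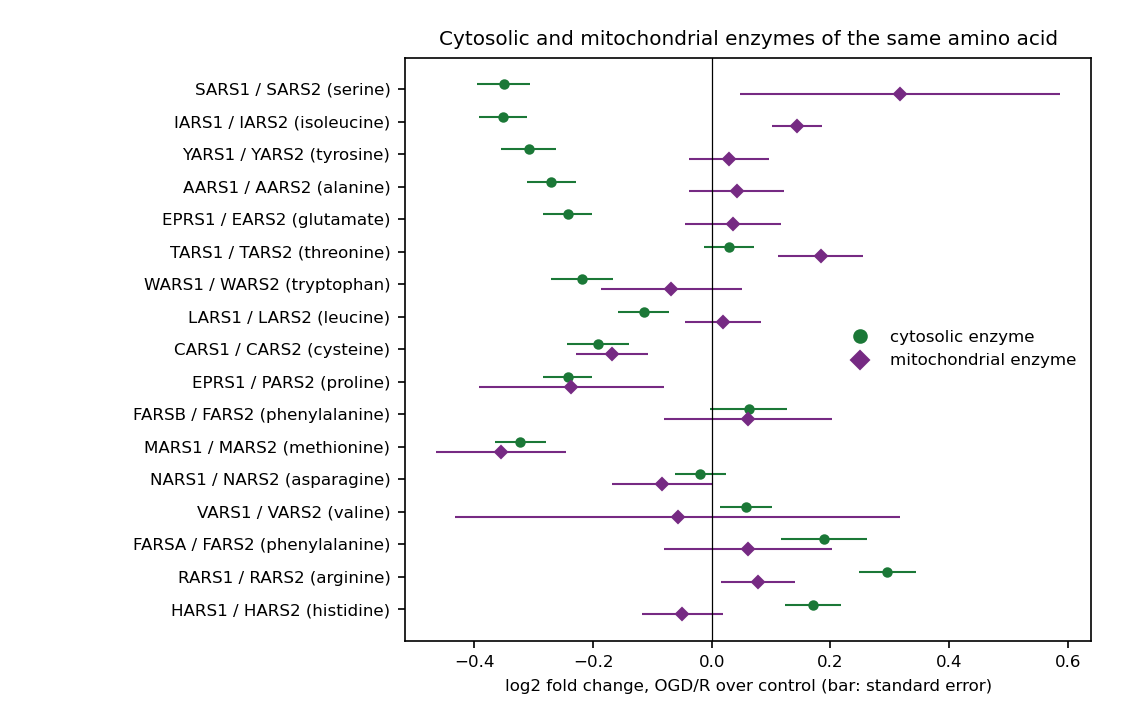
Log2 fold change of OGD/R over control of the cytosolic enzyme (circle) and the mitochondrial enzyme (diamond) for each of 17 pairs that charge the same amino acid; bars are 1 SE, and pairs are ordered by the change of their log2 ratio. The serine and isoleucine pairs at the top lie farthest apart, with the cytosolic enzyme at −0.35 in both, and the methionine and cysteine pairs lie together below 0. The serine gap is uncertain, since SARS2 has low counts and stood at 0.32 ± 0.27.

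HARS1 and HARS2 are a pair of neighbours that start on opposite strands, so they share the DNA between their starts. HARS2, the mitochondrial histidyl enzyme, was at 35.9, 38.7 and 37.7 CPM in OGD/R libraries and 38.02, 40.8 and 37.4 CPM in control libraries, and did not pass (−0.05 ± 0.07, adjusted p = 0.688). The ratio of HARS1 to HARS2 was 1.62 ± 0.09 after OGD/R and 1.40 ± 0.05 in control, higher in every OGD/R library. The 84 bases between both RefSeq starts are shown because they are common to a gene that rose and one that did not pass. Of the HARS2 exon bases, 15.8% overlap other genes, HARS1 among them.

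HARS1-HARS2 between starts, chr5:140691371-140691454, plus strand: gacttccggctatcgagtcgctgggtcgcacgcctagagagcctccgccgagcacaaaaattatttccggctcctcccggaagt

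KARS1, which rose, overlaps in its promoter window with TERF2IP on the other strand, by 207 bases, and WARS1, which fell, overlaps with WDR25 by 257 bases. TERF2IP had a fold change of −0.05 ± 0.06 (adjusted p = 0.647) and WDR25 of 0.11 ± 0.15 (adjusted p = 0.689), so neither partner passed with its synthetase. Whether each pair's members differed from each other was not tested.

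Other genes that handle tRNA or deliver it to the ribosome showed no single direction. The shares over all genes were 10.2% that rose and 9.48% that fell. In the list of tRNA maturation and export, 2 of 14 rose, 3 fell and 9 did not pass, with a median of 0.06; TSEN34, a subunit of the tRNA splicing endonuclease, rose by 0.19 ± 0.05 (adjusted p = 0.00219), and RTCB, the tRNA ligase, by 0.18 ± 0.05 (adjusted p = 0.00537). Among cytosolic elongation factors 5 of 6 were measured. EIF5A rose by 0.31 ± 0.04 (adjusted p = 5.42e-08) and EEF1B2 by 0.14 ± 0.04 (adjusted p = 0.0181), while EEF2, the translocation factor, fell by 0.29 ± 0.04 on the log2 scale (adjusted p = 2.44e-07). In the mitochondrial translation list 2 of 7 rose, TUFM (0.16) and GFM2 (0.18), and 0 fell (0 also at an unadjusted p under 0.05 in edgeR, and in DESeq2 and limma-voom). Of the 8 genes of aminoacyl-tRNA editing and amidation, which include the subunits that make mitochondrial glutaminyl-tRNA in the absence of a mitochondrial glutaminyl enzyme, none passed in edgeR, at an unadjusted p under 0.05 either, nor in DESeq2 or limma-voom.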

How the data were processed

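Whole-number read counts per Ensembl gene were deposited by the authors for 3 OGD/R and 3 control libraries in 1 table of 17104 genes. Per the labels' protocols, total RNA went into NEBNext Ultra libraries. The submitters' processing notes name featureCounts, HISAT2, Trimmomatic, SAMtools and edgeR, with GRCm38 as build, which is a mouse genome although the gene IDs are human. Which build the counts rest on is thus unsure, and coordinates are given only for RefSeq promoter windows. Strand use and the handling of shared reads are not given in the sources used here. In the table as deposited, no gene had fewer than 3 libraries with 10 counts or more.

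Symbols came from a gene name table (17093 matched). Counts were tested with edgeR 4.0.16 (R 4.3.3): TMM, robust quasi-likelihood fit, no replicate block; filterByExpr removed 0 genes. The script was tested on simulated data. SE is the absolute fold change over the root of F. Alternatives were DESeq2 1.42.0, scaling by total count, upper quartile or RLE, limma-voom (limma 3.58.1), other filters, the replicate block, leaving out each library, and offsets for length and GC of the longest GENCODE 29 transcript (mgcv 1.9.3). Library pairs within a group differed by 4.10 to 7.53 chi-square units per degree of freedom, beyond sampling noise, so none was a duplicate. Members, gene lists and tests were chosen with earlier results of these data known. Every member is accounted for; values per library are given for the members past the threshold and for WARS1, HARS1, HARS2, KARS1, GARS1, QARS1, EPRS1, AIMP1, AIMP2 and EEF1E1; LARS1 and YARS2 were added after their values were seen. Of other lists, at most the 3 changed genes of smallest p are named, apart from ATF4, XPOT and ELF3. Lists of pericyte and fibroblast markers (4 of 12 measured, 17.8 to 24.8 CPM summed after OGD/R and 21.2 to 23.1 CPM in control) and of astrocyte and microglia markers (1 of 9 measured) had 0 members past the threshold in edgeR, DESeq2 and limma-voom, and at an unadjusted p under 0.05 in edgeR they had 0 and 1.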

Additional observations from a re-analysis of the deposited data

How the results depend on the processing

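Across 16 alternatives the number of changed genes ranged from 2383 to 3529, against 3370, and the cytosolic counts from 9 to 10 lower and 3 to 4 higher, against 9 and 3. Total-count scaling moved the share of higher calls among changed genes to 39.7%, against 51.9%, and the median of all genes by under 0.1. Leaving out 1 library at a time gave 0 to 3 changed mitochondrial enzymes, 0 to 1 lower and 0 to 2 higher, and upper-quartile scaling gave 1 lower. None of the 15 changed members turned sign. Of the others, 12 did. With total-count scaling TARS1 was at −0.00085, LARS2 at −0.0112 and YARS2 at −0.0019. After the length and GC correction YARS2 was at −0.0285, VARS2 at 0.0015, FARS2 at −0.0063 and RARS2 at −0.0422. Over the fits without 1 library, TARS1 ranged from −0.0017 to 0.0750, NARS1 from −0.0419 to 0.0240, EARS2 from −0.0055 to 0.0898, AARS2 from −0.0039 to 0.10, VARS2 from −0.23 to 0.0255, AIMP1 from −0.0380 to 0.0190, EEF1E1 from −0.14 to 0.0793 and WARS2 from −0.11 to 0.0156. The cause was not tested. With the replicate number as a block, 3529 genes changed, 12 calls of cytosolic enzymes became 13 (FARSA, adjusted p 0.0473) and no other member's call changed. Same-numbered libraries did not deviate together (correlations of −0.01, 0.09 and −0.02), so the numbers were not taken as pairs. Dropping the filter left the tested genes as they were. The low counts of SARS2 (46 to 92 per library) and VARS2 (25 to 39) limit what can be seen in them.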
